A study of Rattus norvegicus with 8 samples.

Results

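The genes of voltage-gated calcium and sodium channels were followed in the neurohypophysis (neural lobe, posterior pituitary) of male Sprague Dawley rats aged 125 days (n = 4 libraries) and 35 days (n = 4). They were taken by name: the pore, alpha2delta, beta and gamma subunit genes of calcium channels (Cacna1, Cacna2d, Cacnb and Cacng), the pore and beta subunit genes of sodium channels (Scn) and the sodium leak channel gene Nalcn, each reaching 10 or more in 4 or more of the 8 libraries. Of 41 genes with such names among the 33294 listed, 38 passed that filter. The labels name no agent beyond the isoflurane and saline perfusion used at tissue collection, and age was the only labelled difference. The frozen lobe was ground, so each library mixes axon terminals, glia, vessels and any adhering tissue, and fewer cells of a type cannot be told apart from less RNA per cell. Nothing in the labels says that the numbered samples of an age are different rats. A p-value here therefore weighs the age difference only against the scatter among samples of an age. Some of that scatter may be technical.

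The neural lobe holds the axon terminals of hypothalamic vasopressin and oxytocin neurons, whose cell bodies lie outside it, and the astrocyte-like pituicytes that surround them. Action potentials carried by sodium channels invade these terminals and open calcium channels, and the calcium that enters triggers hormone release. The pore subunit sets the current type of a calcium channel (L, P/Q, N, R or T), while alpha2delta and beta subunits bring it to the membrane and tune its gating. The intermediate lobe, which adjoins the neural lobe, and the anterior lobe consist of endocrine cells that are electrically excitable and use many of the same channels.

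Values are depth-normalized counts, which is the number of reads of a gene after division by a size factor of the library, made by the authors. They are not divided by transcript length, so they compare libraries for 1 gene and not genes with each other. Changes are log2 differences on the log2(value + 1) scale, 125 minus 35 days, with their standard error (SE), from limma fitted over all 17919 genes tested with Benjamini-Hochberg adjustment, and genes are called at an adjusted p below 0.05. The libraries held 28429133 to 58696254 recovered reads. Library 3 of the 35-day group stood apart from the others: the summed counts of 10 anterior lobe markers, among them Gh1 and Prl, were 1394432 there, against 6553 to 50197 in the 125-day libraries and 24427 to 228224 in the other 35-day libraries. The 5 intermediate lobe markers, among them Pomc, had a mean log2 level between 15.27 and 15.76 in 125-day libraries and between 14.92 and 15.31 in 35-day libraries, so markers of both neighbouring lobes differed between libraries. Results are given with and without 35-day replicate 3 where the 2 differ in call.

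Of the 38 channel genes, 6 rose and 2 fell between the ages, against a background of 8.85% of all genes tested called higher and 8.87% called lower at 125 days. The 8 calls are 21.1% of the channel genes, near the 17.7% of all genes called in either direction. Among those that rose were Cacna1e, Cacnb3, Cacng5, Cacng7 and Scn1a, and those that fell were Cacna1g and Scn4a, the last of which passed the filter on low values only through its 35-day libraries. edgeR on the recovered reads called the same 8 genes (background 17.7%). The median log2 change was 0.19 over the channel genes and 0.01 over all genes tested. Without 35-day replicate 3, 7 channel genes rose and 7 fell, against backgrounds of 15.9% and 14.8% (30.7% in either direction). The 8 calls remained, Cacng2 joined the genes that rose, and Scn7a, Scn2a, Scn3a, Cacna2d2 and Cacng4 joined those that fell; the median change of the channel genes was then 0.08. Every 125-day library lay above every 35-day one for 7 of the 38 genes (the 6 that rose and Cacna1f) and below for 2, together 23.7%, against 24.9% of all genes tested (13.4% above and 11.5% below). The summed counts of the intermediate lobe markers were 3615994 to 5345607 at 125 days, against 2016423 to 2310069 at 35 days in replicates 1, 2 and 4 and 3764256 in replicate 3. Pomc made up nearly all of that sum and was not called (log2 change 0.87, SE 0.57, adjusted p = 0.333). Of the other 4, Pcsk2 rose (0.79, SE 0.19), and Pax7 (-0.01), Drd2 (-0.03) and Tbx19 (0.26) did not pass the test. The summed counts of 7 markers of vasopressin and oxytocin terminals were 33878 to 36903 at 125 days and 24081 to 27989 at 35 days, mostly from Snap25 and Syt1. Of these 7, Oxt (0.82, SE 0.21) and Snap25 (0.53, SE 0.13) rose, Nefl fell (-0.64, SE 0.18), and Avp, Syt1, Nefm and Stmn2 did not pass the test. With the mean log2 level of the intermediate lobe markers as a covariate in limma, 0 channel genes were called. Of all 17919 genes tested, 604 were called, 238 higher and 366 lower. That level was itself mostly higher at 125 days (15.27 to 15.76, against 14.92 to 15.31 at 35 days), so this fit cannot fully separate it from age. The changes did not all shrink: Cacna1g had -1.13 (SE 0.28, adjusted p = 0.0697) and Cacng2 2.04 (SE 0.70, adjusted p = 0.187), while Cacnb3 had 0.51 (SE 0.19, adjusted p = 0.220) and Cacna1e 0.93 (SE 0.43, adjusted p = 0.344). The part of the terminal markers in these calls was not tested.

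**Figure D1:**
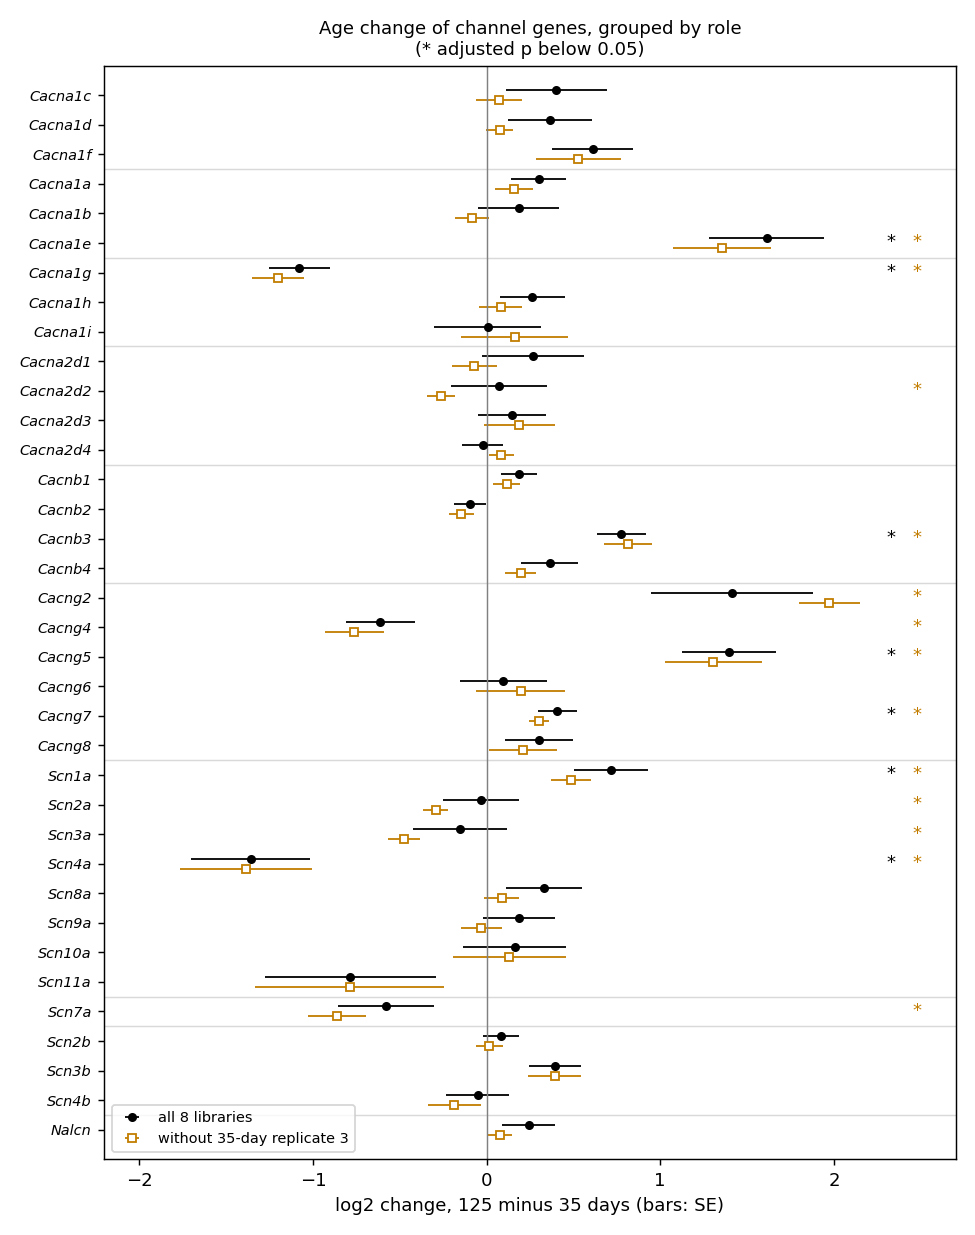
Log2 change of 36 of the channel genes between 125 and 35 days, with bars for the SE, from all 8 libraries (filled circles) and without 35-day replicate 3 (open squares). Stars at the right mark an adjusted p below 0.05 in the fit of the same colour: 7 of these genes with all libraries and 13 without 35-day replicate 3.

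Among the pore genes of the channels that trigger release at nerve terminals, the R-type gene Cacna1e rose. It had 263, 132, 338 and 179 depth-normalized counts in 125-day replicates 1 to 4, against 74.3, 88.9, 40.3 and 86.4 in the 35-day replicates. Every 125-day library lay above every 35-day one. In counts the 125-day libraries differed among themselves by more than the 35-day ones (SD 91.2 against 22.4), at a higher mean (228 against 72.5). The log2 change was 1.61 (SE 0.33, adjusted p = 0.00861), and 1.36 (SE 0.28, adjusted p = 0.00606) without 35-day replicate 3. It missed the threshold once the anterior lobe level entered as a covariate (adjusted p = 0.0588 at a log2 change of 1.49, SE 0.47). That level was itself mostly lower at 125 days (mean log2 7.41 to 9.39, against 9.13 to 13.78 at 35 days). Of its markers Lhb, Fshb, Gnrhr, Cga and Nr5a1 fell, and the others did not pass the test. No fit given here with the anterior lobe level can therefore fully separate it from age.

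Cacna1a, the P/Q-type pore gene, had 2437, 1878, 2525 and 2115 counts at 125 days and 1786, 2078, 1341 and 2133 at 35 days. The ages overlapped, with the lowest value in 35-day replicate 3 (log2 change 0.30, SE 0.16, adjusted p = 0.228). Cacna1b, the N-type pore gene, had 1250, 1013, 1333 and 1134 counts at 125 days and 1220, 1176, 592 and 1350 at 35 days. Its change was 0.18 (SE 0.23, adjusted p = 0.633), and -0.08 (SE 0.10, adjusted p = 0.559) without 35-day replicate 3, the library that sat far below the rest. Within each library Cacna1e made up 6.66, 4.37, 8.05 and 5.22% of the summed counts of Cacna1a, Cacna1b and Cacna1e at 125 days, and 2.41, 2.66, 2.04 and 2.42% at 35 days. These shares do not depend on the scaling between libraries, and those of 35-day replicate 3 lay close to those of the other 35-day libraries. The shares of a gene within its subfamily given here were chosen after the values were seen and were not tested.

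The L-type pore genes did not pass the test. Cacna1d, the L-type pore gene of neuroendocrine and pacemaking cells, had 7375, 7617, 7668 and 7713 counts at 125 days and 7861, 6343, 3218 and 7478 at 35 days. The 125-day libraries lay within a narrow range, and 35-day replicate 3 was lower than any other (log2 change 0.37, SE 0.24, adjusted p = 0.337; without that library 0.08, SE 0.08, adjusted p = 0.484). Cacna1c, the L-type pore gene of heart and smooth muscle, had 672, 604, 773 and 507 counts at 125 days and 583, 578, 240 and 645 at 35 days. It too was lowest in 35-day replicate 3 (log2 change 0.40, SE 0.29, adjusted p = 0.379). Cacna1f, an L-type pore gene best known from photoreceptors, had 27.4 to 29.5 counts at 125 days and 15.3 to 25.8 at 35 days. It was apart by age but not called in the main fit (log2 change 0.61, SE 0.23, adjusted p = 0.103). Of the alternatives, only limma with no intensity trend called it (SE 0.16, adjusted p = 0.0344). Cacna1s, the pore gene of skeletal muscle, missed the filter, with 2.18 counts at most.

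T-type channels open near the resting potential, and of their 3 pore genes Cacna1g alone passed the test. It had 173, 241, 192 and 215 counts in the 125-day replicates, against 392, 486, 333 and 543 in the 35-day replicates. The ages did not overlap, and the log2 change of -1.08 (SE 0.17, adjusted p = 0.00257) became -1.20 (SE 0.15, adjusted p = 4.44e-04) without 35-day replicate 3. Cacna1h had 3255, 2319, 2749 and 2883 counts at 125 days and 2354, 2476, 1584 and 3111 at 35 days, with overlapping ages (log2 change 0.26, SE 0.19, adjusted p = 0.377). Cacna1i had a mean of 99.2 ± 24.0 counts at 125 days and 103 ± 36.9 at 35 days (SD, n = 4 each). Cacna1g took 4.92 to 9.15% of the summed counts of the T-type genes at 125 days and 14.0 to 16.3% at 35 days, with 35-day replicate 3 (16.3%) beside the other libraries of its age.

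**Figure D2:**
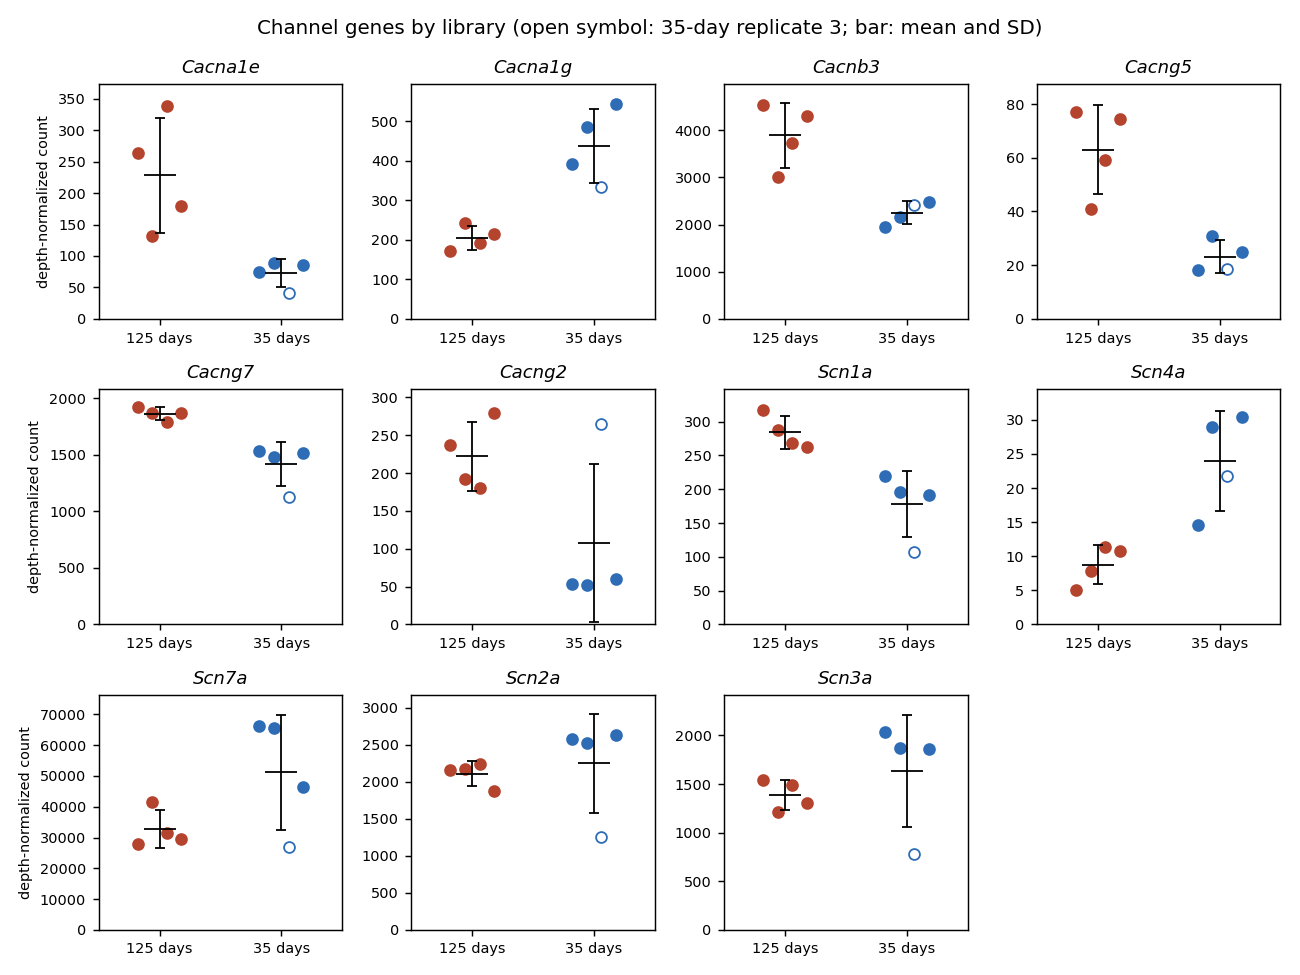
Depth-normalized counts of 11 channel genes in each library, 125 days left and 35 days right, with the mean and SD of each age; the open symbol is 35-day replicate 3. Cacna1e, Cacnb3, Cacng5, Cacng7 and Scn1a lay higher and Cacna1g and Scn4a lower in every 125-day library than in every 35-day library, while Scn7a, Scn2a and Scn3a were lowest, and Cacng2 highest among 35-day libraries, in 35-day replicate 3.

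Of the cytoplasmic calcium channel beta subunit genes, Cacnb3 rose and the other 3 did not pass the test. Cacnb3 had 4534, 3000, 3732 and 4299 counts in the 125-day replicates and 1953, 2161, 2416 and 2486 in the 35-day replicates. Every 125-day library was higher than every 35-day library, with 125-day replicate 2 the nearest to them, and the log2 change was 0.78 (SE 0.14, adjusted p = 0.00451). Its value in 35-day replicate 3 was 1.10 times the mean of the other 35-day libraries, and without that library the change was 0.81 (SE 0.14). Cacnb4 averaged 1111 ± 124 counts at 125 days and 875 ± 180 at 35 days (SD, n = 4 each; log2 change 0.36, SE 0.16, adjusted p = 0.157), and Cacnb1 and Cacnb2 changed by 0.19 (SE 0.10) and -0.09 (SE 0.09) without a call. Cacnb3 made up 51.4, 43.6, 47.0 and 52.3% of the summed counts of the beta subunit genes at 125 days, and 33.9, 34.9, 43.3 and 37.7% at 35 days. The ages stood apart by a narrow margin, between 125-day replicate 2 and 35-day replicate 3.

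No alpha2delta gene passed the test with all libraries. These genes encode the extracellular subunits, of which those of Cacna2d1 and Cacna2d2 bind gabapentin. Cacna2d2 had 9798, 11728, 9741 and 9867 counts at 125 days and 11999, 12252, 4864 and 12657 at 35 days. Replicates 1, 2 and 4 of 35 days were above every 125-day library and replicate 3 was below all of them, and the log2 change was 0.07 (SE 0.28, adjusted p = 0.890). Without replicate 3 it was -0.26 (SE 0.08, adjusted p = 0.0313), the opposite direction. Cacna2d1 was also lowest in 35-day replicate 3, at 1427 counts, with 2831 to 4309 at 125 days and, within that range, 3347 to 3954 in the other 35-day libraries. Cacna2d3 averaged 129 ± 33.9 counts at 125 days and 114 ± 7.58 at 35 days (SD, n = 4 each). Cacna2d4, at 1683 ± 106 counts at 125 days and 1721 ± 281 at 35 days, was the one alpha2delta gene with its highest value (2127) in 35-day replicate 3.

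The gamma family holds the skeletal muscle subunit Cacng1, its relative Cacng6, and the transmembrane AMPA receptor regulatory proteins (TARPs), which carry glutamate receptors to the membrane and are not subunits of most calcium channels. Cacng5, a TARP gene, had 77.2, 41.1, 59.3 and 74.3 counts at 125 days and 18.3, 31.0, 18.5 and 24.8 at 35 days. The ages did not overlap (log2 change 1.40, SE 0.27, adjusted p = 0.00636). It rests on 15 to 76 recovered reads per library. Cacng7, another TARP gene, had 1923, 1873, 1790 and 1873 counts at 125 days and 1537, 1484, 1126 and 1517 at 35 days, again apart (log2 change 0.41, SE 0.11, adjusted p = 0.0306). That call was lost with scaling to the library total (0.0900), with no intensity trend (0.0509), with the anterior lobe level in the model (adjusted p = 0.321 at a change of 0.21, SE 0.13) and without any 1 of the 125-day libraries or 35-day replicate 2 (0.0572 to 0.0871).

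Cacng2, which encodes the TARP stargazin, had 237, 192, 180 and 280 counts at 125 days. Its 35-day values were 53.6, 51.7 and 59.8 in replicates 1, 2 and 4, and 265 in replicate 3. That library, which also held the highest anterior lobe marker sum, lay among the 125-day libraries, at 4.81 times the mean of the other 35-day libraries, and the gene did not pass the test (log2 change 1.41, SE 0.47, adjusted p = 0.0636). Without it the change was 1.97 (SE 0.18, adjusted p = 7.22e-05), and with the anterior lobe level in the model 2.46 (SE 0.47, adjusted p = 0.00787). Cacng4, a TARP gene, went the other way, with 86.0 to 124 counts at 125 days and 119 to 204 at 35 days. Its log2 change was -0.61 (SE 0.20, adjusted p = 0.0606), and -0.76 without 35-day replicate 3 (SE 0.17, adjusted p = 0.00829). Cacng6 and Cacng8 had overlapping ages. Cacng3 missed the filter and was above 10 in 1 library only, 35-day replicate 3, at 25.1 counts against 0 to 6.20 elsewhere, and Cacng1 did not exceed 1.09. Just inside the filter were Scn4a and Scn11a, each at 10 or more in 6 libraries.

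The sodium channel pore genes Scn3a, Scn2a, Scn1a, Scn9a and Scn7a lie in this order in 1 cluster on chromosome 3 of the RefSeq assembly GRCr8, with 4 other protein-coding genes between Scn2a and Scn1a and none between the other pairs. Scn1a had 318, 287, 269 and 263 counts in the 125-day replicates and 220, 195, 107 and 191 in the 35-day replicates. All 125-day libraries were above the 35-day ones, and the log2 change was 0.72 (SE 0.21, adjusted p = 0.0435). Without 35-day replicate 3 it was 0.49 (SE 0.11, adjusted p = 0.0107). The call was lost without any 1 of the 125-day libraries or without 35-day replicates 2 or 4 (0.0601 to 0.120), with the anterior lobe level in the model (adjusted p = 0.486 at a change of 0.25, SE 0.22), with scaling to the total (0.0783), with no trend (0.0572) and with no filter (0.0532).

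Scn2a and Scn3a, of the same cluster, did not pass the test with all libraries. Scn2a, the pore gene of unmyelinated axons, had 2159, 2179, 2239 and 1872 counts at 125 days and 2580, 2531, 1253 and 2638 at 35 days. Replicates 1, 2 and 4 of 35 days were above every 125-day library and replicate 3 was below them (log2 change -0.03, SE 0.22, adjusted p = 0.939). Without replicate 3 the change was -0.29 (SE 0.07, adjusted p = 0.0136). Scn3a, known in rat brain for its high expression before and around birth, had 1537, 1209, 1493 and 1309 counts at 125 days and 2039, 1868, 783 and 1857 at 35 days. It was arranged in the same way, with changes of -0.15 (SE 0.27, adjusted p = 0.744) with all libraries and -0.48 (SE 0.09, adjusted p = 0.00426) without replicate 3. Scn1a made up 5.75, 5.77, 4.93 and 5.71% of the summed counts of Scn1a, Scn2a, Scn3a and Scn8a at 125 days, against 3.68, 3.30, 3.83 and 3.16% at 35 days. The ages were apart in this share, and 35-day replicate 3 did not stand out.

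Scn8a, the pore gene of nodes of Ranvier and axon initial segments, averaged 1358 ± 159 counts at 125 days and 1119 ± 326 at 35 days (SD, n = 4 each; log2 change 0.33, SE 0.22, adjusted p = 0.335). Scn9a, of sensory and neuroendocrine cells, averaged 2105 ± 309 counts at 125 days and 1896 ± 526 at 35 days. The log2 change was 0.19 (SE 0.21, adjusted p = 0.577). Scn10a and Scn11a, of sensory neurons, reached 43.0 and 18.1 counts at most. None of these 4 genes passed the test with or without 35-day replicate 3.

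Scn4a, the pore gene of skeletal muscle, had low counts: 5.08, 7.82, 11.3 and 10.8 at 125 days and 14.6, 28.9, 21.8 and 30.5 at 35 days. The ages did not overlap (log2 change -1.36, SE 0.34, adjusted p = 0.0223), on 5 to 54 recovered reads. It passed the filter only through its 35-day libraries, since 2 of the 125-day ones reached 10, and with no filter the adjusted p was 0.0353. The call was lost without 125-day replicate 1 or 35-day replicates 2 or 4 (0.0581 to 0.0683) and with the anterior lobe level in the model (adjusted p = 0.174 at a change of -1.06, SE 0.49). The summed counts of 10 skeletal muscle markers were 430 to 507 at 125 days and 318 to 424 at 35 days. Of these, Acta1 rose (log2 change 1.19, SE 0.22), and Myh2, Ckm, Tnnt3, Mylpf, Casq1 and Actn3 did not pass the test. Mylpf had 151 to 226 counts over the libraries, while the muscle myosin genes Myh1 and Myh4 were at 0 to 2.03 in every library.

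Scn7a encodes Nax, a relative of the voltage-gated pores that does not open to depolarization and is known as a sensor of extracellular sodium in glia of circumventricular organs, a set of brain regions with fenestrated capillaries that includes the neural lobe. Scn7a had 27951, 41583, 31558 and 29545 counts in the 125-day replicates and 66096, 65647, 26838 and 46473 in the 35-day replicates. Replicates 1, 2 and 4 of 35 days were above every 125-day library, and replicate 3 was below all of them. With all libraries the log2 change was -0.58 (SE 0.28, adjusted p = 0.183). Without 35-day replicate 3 it was -0.86 (SE 0.17, adjusted p = 0.00430), and with the anterior lobe level in the model -1.25 (SE 0.25, adjusted p = 0.0108).

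Of the other 9 pituicyte markers, Gfap (log2 change -1.62, SE 0.14), S100b (-1.39, SE 0.13) and Aqp4 (-1.22, SE 0.22) fell, and the other 6 did not pass the test, Rax among them (-0.11, SE 0.20, adjusted p = 0.766). Many markers of other cells were also lower at 125 days, such as Pecam1 of endothelium (-0.98, SE 0.22), Rgs5 of pericytes (-1.10, SE 0.29) and Top2a of dividing cells (-3.03, SE 0.10). Not all members of these lists fell. Kdr (-0.30, SE 0.23) and Tek (-0.31, SE 0.18) of endothelium and Cnn1 (-0.28, SE 0.17) of smooth muscle did not pass the test. Myh11 of smooth muscle rose (0.77, SE 0.22). The mean log2 level of the 9 pituicyte markers was 11.27, 11.95, 11.54 and 11.54 in the 125-day replicates and 12.37, 12.40, 12.09 and 12.19 in the 35-day replicates. The log2 level of Scn7a exceeded it by 3.50, 3.40, 3.41 and 3.31 at 125 days and by 3.64, 3.60, 2.62 and 3.31 at 35 days. In this difference the ages overlapped, and 35-day replicate 3 lay below every other library. The part of these markers in the values of Scn7a was not tested.

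The sodium channel beta subunits are single-pass membrane proteins that tune gating and act in cell adhesion. Scn2b, a beta subunit that is bound to the pore by a disulfide bridge, had 2301, 2751, 2576 and 2758 counts at 125 days and 2422, 2652, 2125 and 2620 at 35 days, mixed between the ages (log2 change 0.08, SE 0.10, adjusted p = 0.627). Scn3b changed by 0.40 (SE 0.15, adjusted p = 0.0996) and Scn4b by -0.05 (SE 0.18, adjusted p = 0.881). The Scn3b change passed the test without 125-day replicate 2 (log2 change 0.53, SE 0.12, adjusted p = 0.0172) and with library weights (0.0101).

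Nalcn carries the resting sodium leak that sets how close a neuron sits to firing. It had 9507, 8590, 9809 and 8564 counts at 125 days and 8680, 8520, 5488 and 8645 at 35 days. Apart from 35-day replicate 3 the ages were mixed (log2 change 0.24, SE 0.15, adjusted p = 0.312; without it 0.08, SE 0.07, adjusted p = 0.410).

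**Figure D3:**
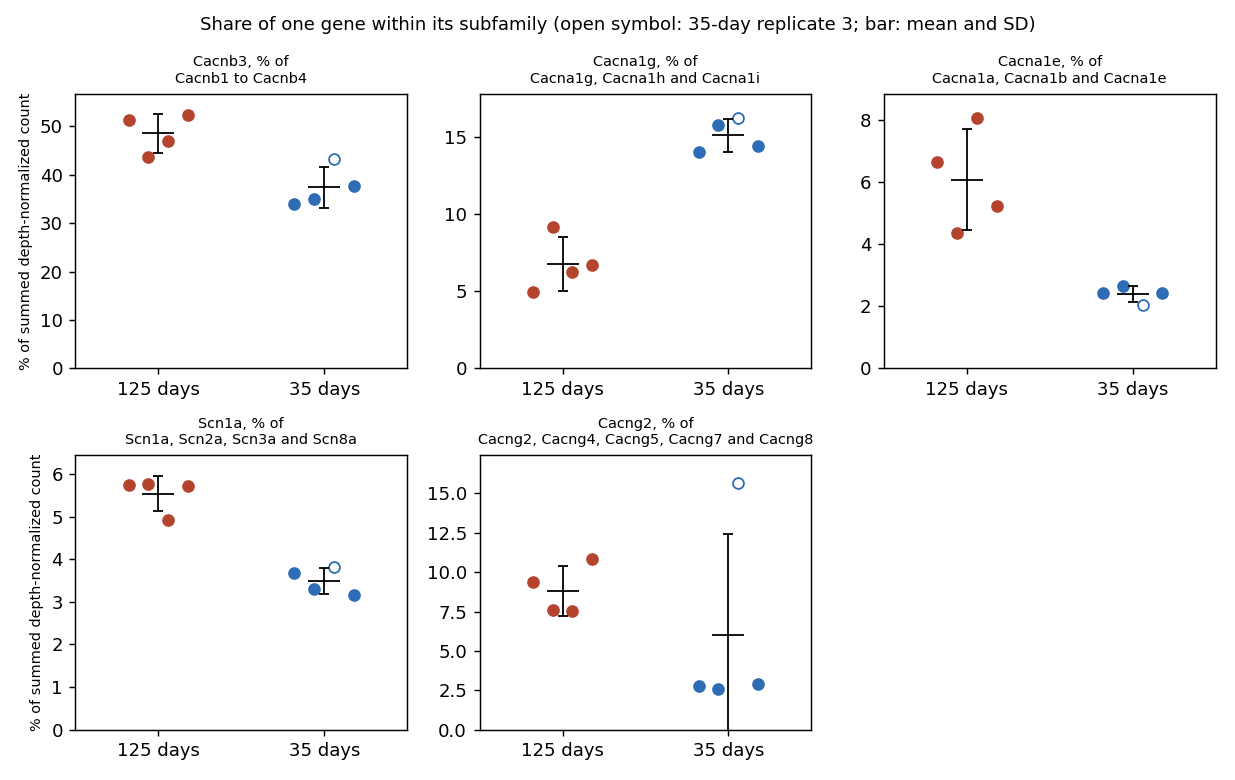
Share of 1 gene in the summed depth-normalized counts of its subfamily, in percent, for each library, 125 days left and 35 days right, with mean and SD; the open symbol is 35-day replicate 3. The ages stood apart for Cacnb3, Cacna1g, Cacna1e and Scn1a, and overlapped, through 35-day replicate 3 at 15.7%, for Cacng2.

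Many channel genes were low in 35-day replicate 3. Of the 38, 22 (57.9%) had their lowest value of all 8 libraries there, against 29.7% of all genes tested. The ratio of that library to the mean of the other 35-day libraries had a median of 0.695 over the channel genes and 0.987 over all genes tested, and it was below 0.7 for 50% of the channel genes and 20.7% of all genes. Among the 20 pore-forming genes, Scn7a and Nalcn included, 14 were below 0.7, with a median of 0.571. Of the 18 auxiliary genes 5 were below 0.7, with a median of 0.824. This split by role was made after the library was seen, and its difference was not tested. The lowest ratios were those of Cacna2d1 (0.3898), Cacna2d2 (0.395), Cacna1c (0.398), Scn3a (0.408) and Cacna1d (0.445), and the highest was that of Cacng2 (4.81). The same library had the highest anterior lobe marker sum and, at a mean log2 of 14.92, the lowest intermediate lobe marker level. By summed counts its intermediate lobe markers were instead the highest of its age (3764256, against 2016423 to 2310069). The part of either lobe's markers in the low channel values was not tested.

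**Figure D4:**
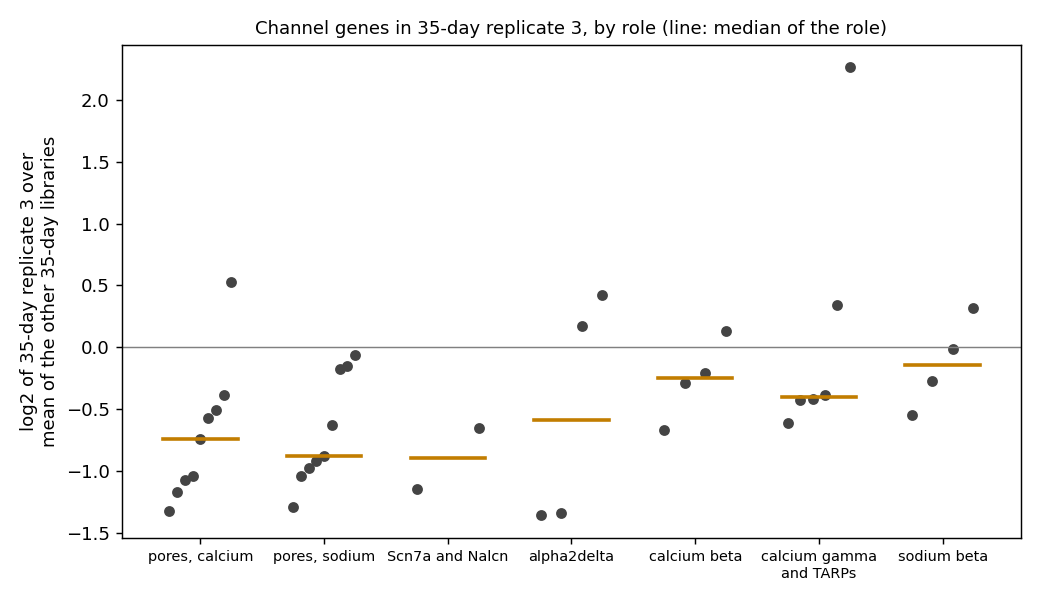
Log2 ratio of 35-day replicate 3 to the mean of the other 3 libraries of 35 days for each channel gene, grouped by role, with a line at the median of each role; 0 is no difference. Most pore-forming genes lay below 0, the lowest of them Cacna1c at a ratio of 0.398, the medians of both kinds of beta subunit lay closest to 0, and Cacng2 was highest at a ratio of 4.81.

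The list of partner genes, chosen with earlier results of these data known, held 50 tested members, of which 15 (30.0%) rose and 3 (6%) fell, against the same backgrounds of 8.85% and 8.87%. With the intermediate lobe covariate 1 rose and 1 fell, Sptbn4 and Rims3, against 238 and 366 of all 17919 genes tested. Without 35-day replicate 3 the counts were 18 and 7, against 15.9% and 14.8%. Of 17 partners of sodium channels 6 rose and 0 fell. Without 35-day replicate 3, 6 rose and 2 fell, Cntn2 by 0.48 (SE 0.10) and Calm2 by 0.32 (SE 0.08) on the log2 scale. Sptbn4, the beta-IV spectrin that anchors sodium channels at initial segments and nodes, averaged 1517 ± 191 counts at 125 days and 508 ± 146 at 35 days (SD, n = 4 each; log2 change 1.61, SE 0.19, adjusted p = 4.37e-04). Fgf11, of the intracellular fibroblast growth factor homologues that bind the channel tail, averaged 521 ± 52.6 counts at 125 days and 280 ± 48.7 at 35 days. The log2 change was 0.90 (SE 0.14, adjusted p = 0.00204). Nrcam, an adhesion molecule of the node, rose 0.34 (SE 0.08), a call lost with scaling to the total (0.0539), with the anterior lobe level in the model (0.0979) and without 125-day replicate 4 (0.0589). Of 4 partners of the leak channel 1 rose: Fam155b averaged 913 ± 113 counts at 125 days and 428 ± 87.3 at 35 days (SD, n = 4 each; log2 change 1.11, SE 0.16, adjusted p = 0.00140). Leaving out 35-day replicate 3, 3 of the 4 rose, with Unc80 at 0.41 (SE 0.07) and Fam155a at 0.42 (SE 0.10).

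Of 12 active zone genes, whose proteins hold calcium channels beside docked vesicles, 3 rose and 1 fell. Of all genes tested, 8.85% were called higher and 8.87% lower. Without 35-day replicate 3 Rims2 also rose (log2 change 0.26, SE 0.07), against backgrounds of 15.9% and 14.8%. The liprin genes Ppfia3 and Ppfia2 rose 0.65 (SE 0.11) and 0.69 (SE 0.16), and Tspoap1, a RIM-binding protein gene, rose 0.57 (SE 0.10). The Ppfia2 call did not hold with the anterior lobe level in the model (0.163) or without 125-day replicates 1 (0.0520) or 4 (0.0542). Rims3, encoding a short RIM protein, averaged 74.9 ± 19.6 counts at 125 days and 178 ± 18.004 at 35 days (SD, n = 4 each), a change of -1.27 (SE 0.20, adjusted p = 0.00228).

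Of 9 tested modulators of calcium channels 2 rose and 2 fell, against 8.85% and 8.87% of all genes tested. The small GTPases Gem and Rrad, both known to inhibit calcium channels through their beta subunits, went opposite ways. Gem averaged 6841 ± 2154 counts at 125 days and 2730 ± 277 at 35 days (SD, n = 4 each; log2 change 1.28, SE 0.20, adjusted p = 0.00188). Rrad averaged 32.3 ± 8.60 counts at 125 days and 103 ± 61.2 at 35 days, a change of -1.52 (SE 0.35, adjusted p = 0.0143) whose call did not hold with the anterior lobe level in the model (0.159). Stac2, an adaptor of L-type channels, fell by 1.49 (SE 0.25) on the log2 scale. Cabp1, a calcium-binding relative of calmodulin, rose 1.003 (SE 0.26) with overlapping ages, a call lost without 125-day replicates 1, 3 or 4 or 35-day replicate 2 (0.0686 to 0.0739). Ryr1 (-1.60, SE 0.26) and Itpr3 (-0.53, SE 0.10), of the 8 calcium release and endolysosomal channel genes, fell without 35-day replicate 3 (background 14.8%). With all libraries 0 of these 8 fell and 3 rose, against 8.87% and 8.85% of all genes tested. Itpr1, an inositol trisphosphate receptor, rose by 0.86 (SE 0.19), Tpcn2 by 0.51 (SE 0.12) and Ryr2, a ryanodine receptor, by 0.93 (SE 0.24). Adding the anterior lobe level ended the calls of Itpr1 (0.155) and Tpcn2 (0.119). Leaving out 125-day replicate 3 ended that of Tpcn2 (0.0540), and leaving out 125-day replicates 1, 3 or 4 that of Ryr2 (0.0574 to 0.0777).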

How the data were processed

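RNA sequencing of 8 libraries was deposited as 1 table of 33294 genes, whose values are a depth-normalized signal that the authors scaled per library. Dividing each deposited column by its smallest value above 0 gave whole numbers for 100% of values (tolerance 0.001 reads), taken here as the reads before that scaling. The tools in the submitters' processing notes are Trimmomatic 0.39, HISAT2 2.2.1, SAMtools 1.13, featureCounts of Subread 2.0.1 and DESeq2 1.34.0, with rn7 as the build and no step assigned to any. RNA was selected by poly(A), per the labels' protocols. The annotation and strand setting were not given in the sources used here, so reads of overlapping or antisense genes cannot be told apart, and reads shared by paralogous channel genes may be split. The 2 columns of the authors' means were not used.

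The main test was limma 3.58.1 (R 4.3.3) on log2(value + 1), using an intensity trend and age as the only term, for genes that reached 10 in 4 or more libraries, two-sided, with Benjamini-Hochberg adjustment over 17919 genes. Alternatives were pseudocounts of 0.5 and 5, other filters and scalings, library weights, a fit with no trend, the recovered reads in edgeR 4.0.16 or DESeq2 1.42.0, the replicate block, the mean log2 level of anterior or intermediate lobe markers as a covariate, and the omission of each library in turn. The fits were tested on simulated data. Named genes are every called channel gene, Scn7a, Cacna1a to Cacna1e, the member of each role with the highest mean, and up to 4 called genes per partner list. Other genes with values of their own, such as Cacng2 and Scn3a, were chosen after their values were seen. A few genes that this rule names are counted but not reported here. Members and lists were chosen with earlier results of these data known. Between libraries of 1 age the chi-square of the reads per gene was 14.2 to 260.0, where read sampling alone gives about 1. All were therefore counted as separate samples, though such values do not show that they came from different rats. Figures were drawn with matplotlib 3.10.9.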

Additional observations from a re-analysis of the deposited data

Results flagged for a closer look

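Dixon's test at its 95% critical value was applied to the 4 libraries of each age for each of the 38 channel genes, 76 groups in all, and found 1 library far from the other 3 in 9 of them. Chance alone gives about 1 in 20 groups where all libraries are alike. The test was not run over all genes, so the share of all genes flagged is not known. Whether the count is particular to channel genes can therefore not be said. By a different measure, 35-day replicate 3 was the lowest of all 8 libraries for 57.9% of the channel genes and 29.7% of all genes tested. In 8 of the 9 the library was 35-day replicate 3, which was the lowest in 7. The gap to the nearest other library, as a fraction of the group's range, was 0.957 for Cacnb4, 0.950 for Nalcn, 0.923 for Scn2a, 0.916 for Cacna2d2, 0.870 for Cacng7, 0.855 for Scn3a and 0.835 for Cacna1c. The same library was the highest for Cacng2, at 0.962. At 125 days, replicate 2 was the highest for Cacna2d2, at 0.937. In 35-day replicate 3 the summed counts of the anterior lobe markers were 1394432, against 24427 to 228224 in the other 35-day libraries. That tissue's part in these values was not tested.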

How the results depend on the processing

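Of 869 values of single channel genes under the alternatives, 812 kept their direction or lack of a call, 31 lost and 23 gained a call, and 3 reversed: the log2 change of Cacna2d2, 0.07 in the main fit, was -0.27 with library weights, -0.26 to 0.20 without 1 library (-0.26 without 35-day replicate 3) and -0.27 in edgeR without that library, a fit chosen after seeing the data. All genes called, 3174 in the main fit, were 7892 with library weights, 604 with the intermediate lobe level as a covariate, 1894 to 5495 without 1 library and 5463 in that edgeR fit. Channel genes called higher, 6 in the main fit, were 0 with the intermediate lobe covariate and 4 to 7 without 1 library. Channel genes called lower, 2 in the main fit, were 1 with a mean of at least 50, 8 with library weights, 0 with the intermediate lobe covariate, 1 to 7 without 1 library and 7 in the added edgeR fit. Partner genes called, 18 in the main fit, were 35 with library weights, 2 with the intermediate lobe covariate, 13 to 25 without 1 library and 28 in the added edgeR fit. Of all genes 1585 were higher and 1589 lower in the main fit, but 1161 and 1978 with scaling to the library total, which moved the median change to -0.06. The replicate numbers share no stated batch, and deviations of same-numbered libraries correlated at -0.12 to 0.17, so they were not taken as pairs; with the replicate block 6 channel genes were called higher and 2 lower, 2718 of all genes and 17 partner genes were called, and no call of a channel gene changed. Genes under about 50 counts, such as Scn4a and Scn10a, rest on few reads.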
